A study of Mus musculus with 6 samples.

Results

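The G1 regulators described here are the D cyclins Ccnd1, Ccnd2 and Ccnd3, their kinases Cdk4 and Cdk6, the CDK inhibitors Cdkn1a, Cdkn1b and Cdkn2c, the pocket protein gene Rb1, and Myc. They were taken from the array annotation as probesets that carry the member's symbol and no other, and where several did, the brightest by its average over the 6 arrays stood for the gene. In this way 9 of the 10 genes were found among 19938 genes, and all 9 passed the filter on low signal (log2 intensity above 7 in at least 3 arrays) that left 11024 genes for testing. Cdkn1a has 1 probeset, which also carries the symbol of another gene, so it is not analysed here. RNA came from perigonadal visceral fat (viWAT) of obese C57BL/6J mice that had eaten a high-fat diet (HFD) for 8 weeks from 6 weeks of age. Hmox1f/f PdgfraCre mice carry floxed alleles of Hmox1, the gene of the heme-degrading enzyme heme oxygenase-1 (HO-1), and Cre driven by the Pdgfra promoter, which is active in adipose precursors (APs). Hmox1f/f mice carry the same floxed alleles without Cre, so an effect of Cre itself and the loss of HO-1 cannot be told apart. There were 3 arrays of each genotype (numbers 1 to 3 for Hmox1f/f PdgfraCre, 4 to 6 for Hmox1f/f), each from a pool of 2 animals.

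D cyclins bind CDK4 and CDK6 and the active complexes phosphorylate the retinoblastoma protein, the product of Rb1, which otherwise holds E2F transcription factors inactive. Released E2F factors switch on the genes of DNA replication, and the cell passes from G1 into S phase. The inhibitors act at different points: the product of Cdkn2c binds CDK4 and CDK6 directly, and that of Cdkn1b blocks mainly the cyclin E and cyclin A complexes of CDK2. MYC is a transcription factor that binds E-box elements with its partner MAX and drives growth and G1 progression. In fat, APs must leave quiescence before they become adipocytes, and cyclin D3 and CDK4 are also known to act in adipocyte differentiation.

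Promoter sequence from RefSeq (GRCm38.p6) was at hand for 5 of the 9 measured genes, namely Ccnd3, Cdk4, Cdk6, Cdkn1b and Cdkn2c. Over the 250 bases before the start site, both strands were searched for the E-box CACGTG, the E2F elements TTTCGCGC and TTTGGCGC, the cyclic AMP response element TGACGTCA and the GC box GGGCGG. The kinase pair and the inhibitor of that pair are shown, because Cdk4 and Cdk6 were measured lower and Cdkn2c higher with Cre. Capitals mark every match.
Cdk4, chr10:127063285-127063534, + strand: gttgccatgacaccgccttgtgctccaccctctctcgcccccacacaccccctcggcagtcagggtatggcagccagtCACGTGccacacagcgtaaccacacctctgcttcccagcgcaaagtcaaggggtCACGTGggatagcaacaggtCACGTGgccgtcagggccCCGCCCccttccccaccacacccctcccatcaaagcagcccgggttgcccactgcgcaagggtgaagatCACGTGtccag
Cdk6, chr5:3343643-3343892, + strand: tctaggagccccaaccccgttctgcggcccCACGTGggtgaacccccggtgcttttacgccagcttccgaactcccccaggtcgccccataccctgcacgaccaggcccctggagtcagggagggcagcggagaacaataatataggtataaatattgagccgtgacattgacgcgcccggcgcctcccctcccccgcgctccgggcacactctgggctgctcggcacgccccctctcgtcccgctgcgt
Cdkn2c, chr4:109666757-109667006, - strand: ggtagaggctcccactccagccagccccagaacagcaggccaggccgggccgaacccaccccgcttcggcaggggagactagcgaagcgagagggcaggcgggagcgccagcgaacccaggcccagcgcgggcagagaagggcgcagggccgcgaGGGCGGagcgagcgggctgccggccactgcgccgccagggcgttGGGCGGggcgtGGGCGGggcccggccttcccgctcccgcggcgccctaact
The Cdk4 window held 4 E-boxes, which begin 172, 118, 98 and 11 bases before the start, and 1 GC box on the opposite strand. The Cdk6 window held 1 E-box, 220 bases before its start, and no GC box. At least 1 E-box was present in 6.02% of all 32851 windows of this length, and 3 or more in 0.0609% (20 windows). The Cdkn2c window held 3 GC boxes and no E-box. At least 1 GC box was present in 32.7% of all windows, and 3 or more in 8.47% (2782 windows). Cdkn2c has a second annotated start whose window held no match to any of these motifs. No window of Ccnd3 or Cdkn1b held an E-box, and neither E2F element (in 0.256% and 0.417% of windows) nor the cyclic AMP element (1.55%) was present in any window of these 5 genes. These are matches of letters, and no binding was measured.

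Values are log2 of the deposited RMA intensities, in which 1 unit is a 2-fold difference. Between 10849 and 11108 genes per array lay above a log2 intensity of 7, and across the genes tested, which are not independent replicates, array pairs correlated at 0.941 (Hmox1f/f PdgfraCre 3 and Hmox1f/f 6) to 0.993 (Hmox1f/f 4 and 5). Hmox1 averaged 11.12 ± 0.33 in Hmox1f/f PdgfraCre and 11.95 ± 0.34 in Hmox1f/f (SD, n = 3 each), and the groups did not overlap. The design text speaks of APs purified on beads while the sample labels speak of viWAT, and markers of mature adipocytes and macrophages were well above the filter on every array, and 15 of 17 AP markers were found and all 15 passed it. The epididymal gene Adam7 was at 11.68 on Hmox1f/f PdgfraCre 1, 5.43 on Hmox1f/f PdgfraCre 2 and 8.93 on Hmox1f/f PdgfraCre 3. Among the controls it was highest on Hmox1f/f 6 (7.85). Values that moved by over 1.5 times once Hmox1f/f PdgfraCre 1 and Hmox1f/f 6 were dropped together (the double drop) are given beside the result. The double drop keeps Hmox1f/f PdgfraCre 3, so it does not leave only arrays with low Adam7. In such bulk RNA, fewer cells of a type and less RNA per cell cannot be told apart.

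The question put to these arrays was whether G1 regulators differ in obese fat between Hmox1f/f PdgfraCre and Hmox1f/f mice. Both G1 kinases, Ccnd1 and Myc were lower with Cre, by 0.28 to 0.32 on the log2 scale, and on all 3 arrays with Cre each of these genes was below all 3 controls. Ccnd2 lay on the other side, above the controls on all 3 arrays, by 0.16. Rb1 and Cdkn2c were higher in the mean, by 0.25 and 0.16, with groups that overlapped, and Ccnd3 and Cdkn1b differed by less than 0.10. None of the 9 genes passed an adjusted p of 0.05 in limma, nor did any of the 11024 genes (0%), while 1944 of them (17.6%) had an unadjusted p under 0.05. Among the 9 genes 4 had an unadjusted p under 0.05 (44.4%), all lower with Cre, a direction that held 13.8% of all genes tested (3.82% were higher). Of the 9 genes 6 were lower in the mean, beside 57.4% of all genes. The groups did not overlap for 5 of the 9, beside 27.0% of all genes: 4 had every array with Cre below the controls (21.2% of all genes) and 1 above (5.82%). The median difference of the 9 genes was -0.098, beside -0.034 over all genes tested. The count of 4 became 2 without Hmox1f/f 4, 2 without Hmox1f/f 6 and 1 (Cdk6) when Hmox1f/f PdgfraCre 1 was dropped with Hmox1f/f 6. Counts over all genes fell in these settings too. Without Hmox1f/f 4, 984 of 10833 genes were lower and 402 higher at that threshold. Without Hmox1f/f 6 these were 891 and 169 of 10938 genes, and under the double drop 474 and 139 of 10759.

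**Figure D1:**
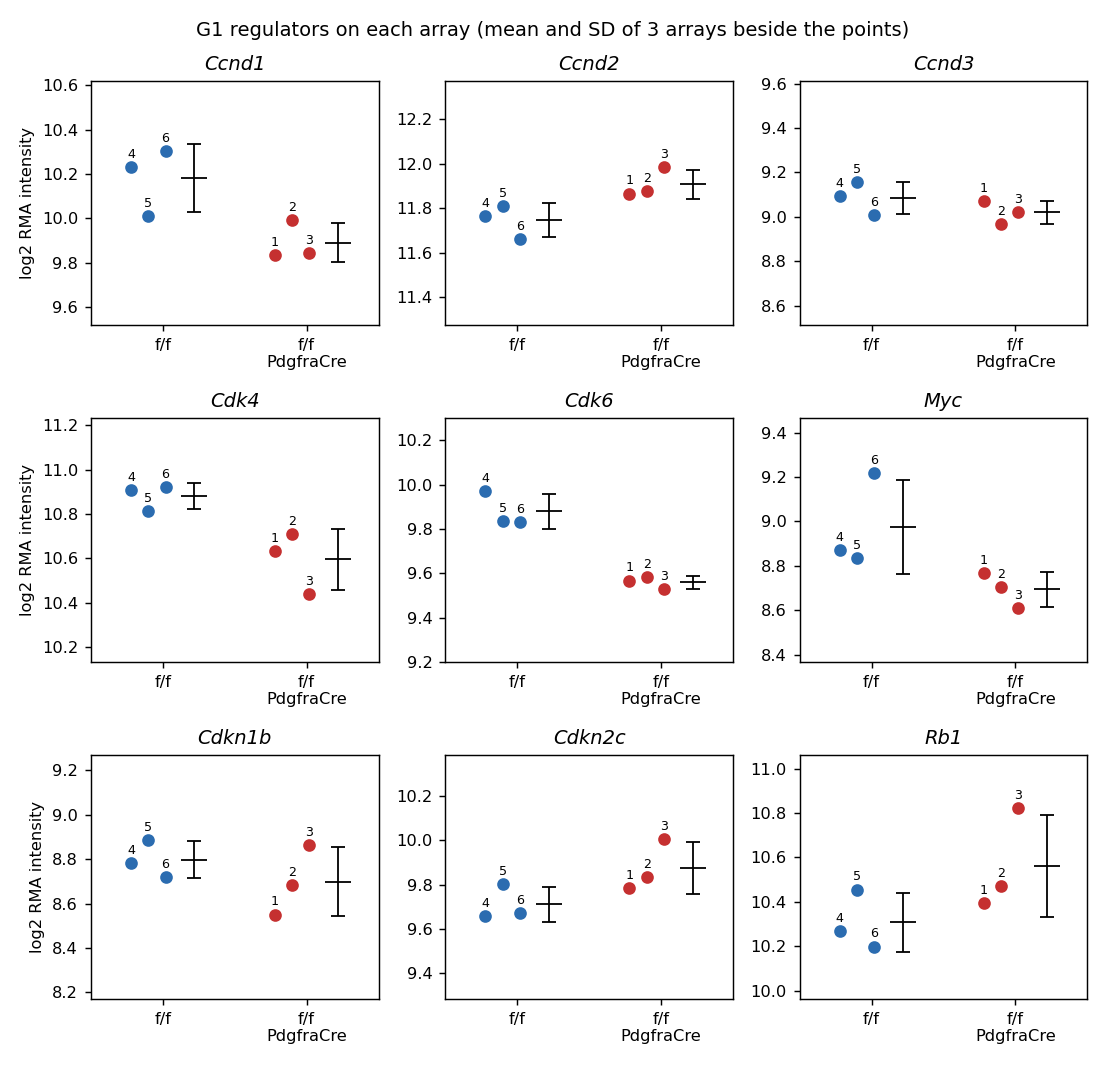
The vertical axis gives the log2 RMA intensity, over the same span in all panels, of the 9 genes on each Hmox1f/f (blue) array and on each array with Cre (red), with array numbers at the points and each group's mean and SD (n = 3) beside them. The values of Ccnd1, Cdk4, Cdk6 and Myc with Cre all lie below the controls, and those of Ccnd2 all lie above.

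Among the D cyclins, Ccnd1 (probeset 10569646) encodes the form most widely induced by growth factors. Its log2 intensity was 9.84, 9.99 and 9.84 on Hmox1f/f PdgfraCre 1 to 3 and 10.23, 10.01 and 10.30 on Hmox1f/f 4 to 6. The nearest pair, Hmox1f/f PdgfraCre 2 and Hmox1f/f 5, lay almost together. For Ccnd1 this gave -0.29 ± 0.10 (SE), or 1.22-fold less signal (95% interval -0.53 to -0.059, limma adjusted p = 0.222). Ccnd2 (probeset 10548105), a D cyclin that FOXO factors restrain in several cell types, gave 11.87, 11.88 and 11.98 with Cre and 11.77, 11.81 and 11.66 without. Here every array with Cre was above every control. The Ccnd2 difference was 0.16 ± 0.078 (SE, 95% interval -0.021 to 0.35, limma adjusted p = 0.319). Ccnd3 (probeset 10445688) gave 9.07, 8.97 and 9.02 with Cre and 9.09, 9.15 and 9.01 without, and the groups overlapped. The Ccnd3 difference was -0.065 ± 0.075 (SE), with an interval from -0.24 to 0.11. It ranged from -0.10 to -0.030 with 1 array left out and was -0.13 when Hmox1f/f PdgfraCre 1 and Hmox1f/f 6 were dropped.

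The opposite signs of Ccnd1 and Ccnd2 were tested within arrays. The log2 ratio of Ccnd2 to Ccnd1 signal was 2.03, 1.88 and 2.14 with Cre and 1.53, 1.80 and 1.36 without, so it was higher on each array with Cre. The ratio differed by 0.45 ± 0.15 (SE) between genotypes, with p = 0.1 in an exact two-sided permutation test over the arrays, the smallest value that 3 against 3 arrays can give, and an adjusted p of 0.3 over the 3 gene pairs computed. For Ccnd3 over Ccnd1 the difference was 0.23 ± 0.15 (SE, exact permutation p = 0.2, adjusted p = 0.3), and the groups overlapped, since Hmox1f/f 5 at -0.86 was above the -1.02 of Hmox1f/f PdgfraCre 2. The pair Cdkn1a and Cdkn1b was not computed.

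The kinase genes were lower by like amounts. Cdk6 (probeset 10519324) gave 9.57, 9.58 and 9.53 with Cre and 9.97, 9.84 and 9.83 without. The values with Cre lay close together, and the gap to the lowest control was wider than the spread of either group. The Cdk6 difference was -0.32 ± 0.074 (SE), or 1.25-fold less signal (95% interval -0.49 to -0.15, limma adjusted p = 0.200). Another 147 tested genes had a smaller p. Cdk4 (probeset 10366814) gave 10.63, 10.71 and 10.44 with Cre and 10.91, 10.81 and 10.92 without. The groups again did not overlap, and Hmox1f/f PdgfraCre 3 was the lowest array. The Cdk4 difference was -0.29 ± 0.091 (SE, 95% interval -0.50 to -0.071, limma adjusted p = 0.215). The log2 ratio of Cdk6 to Cdk4 signal differed between genotypes by -0.034 ± 0.079 (SE, exact permutation p = 0.8), and its values overlapped. With 1 array left out it ranged from -0.095 to 0.012.

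Myc (probeset 10424400) gave 8.77, 8.70 and 8.61 with Cre and 8.87, 8.83 and 9.22 without. Hmox1f/f 6 stood above the other controls, and the gap between the groups elsewhere was small. The Myc difference was -0.28 ± 0.12 (SE, 95% interval -0.55 to -0.0046, limma adjusted p = 0.278), and it was -0.16 without Hmox1f/f 6.

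Of the genes that hold G1 back, Rb1 (probeset 10421526) gave 10.39, 10.47 and 10.82 with Cre and 10.27, 10.46 and 10.20 without. The groups overlapped, since Hmox1f/f 5 was above Hmox1f/f PdgfraCre 1, and Hmox1f/f PdgfraCre 3 was the highest array. The Rb1 difference was 0.25 ± 0.13 (SE, 95% interval -0.053 to 0.56, limma adjusted p = 0.347), and it was 0.12 without Hmox1f/f PdgfraCre 3. Cdkn2c (probeset 10515090) gave 9.78, 9.84 and 10.01 with Cre and 9.66, 9.80 and 9.67 without, with Hmox1f/f 5 just above Hmox1f/f PdgfraCre 1. Its difference was 0.16 ± 0.088 (SE), with an interval from -0.044 to 0.37, and 0.098 without Hmox1f/f PdgfraCre 3. Cdkn1b (probeset 10542310) gave 8.55, 8.68 and 8.86 with Cre and 8.78, 8.89 and 8.72 without, and the groups overlapped over most of their range. Its difference was -0.098 ± 0.10 (SE), with an interval from -0.33 to 0.14. Dropping Hmox1f/f PdgfraCre 1 gave -0.024, dropping Hmox1f/f 5 gave -0.054, dropping Hmox1f/f PdgfraCre 3 gave -0.18, and the double drop gave -0.062. A second, dimmer Cdkn1b probeset (10542317) differed by -0.18, in the same direction.

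**Figure D2:**
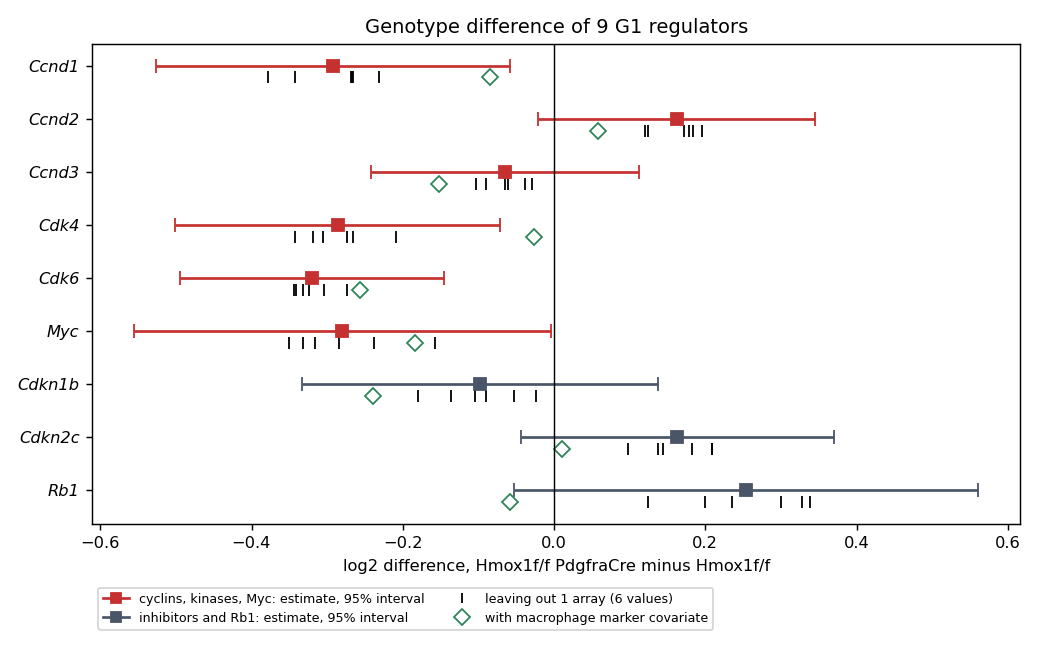
Log2 difference between Hmox1f/f PdgfraCre and Hmox1f/f (horizontal axis) for each of the 9 genes, with the 95% confidence interval from limma, the 6 values that leave out 1 array each (ticks) and the value after adjusting for the macrophage marker mean (diamonds). The intervals of Ccnd1, Cdk4, Cdk6 and Myc lie below 0. The diamond of Cdk4 is at -0.027 ± 0.14 (SE) and that of Cdk6 at -0.26 ± 0.14.

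Marker genes of several cell types also differed in level between the genotypes. The macrophage, endothelial and adipocyte means separated fully between the groups. Their part in the values above therefore cannot be told apart from genotype, also not by the fits with covariates. Of 20 macrophage markers tested, 20 were lower with Cre, and their mean log2 intensity per array was 10.58 to 11.06 with Cre and 11.24 to 11.31 without. Cd14 differed by -0.68, Itgam by -0.65 and Csf1r by -0.42. Of 6 mast cell markers tested, 6 were lower (mean 7.54 to 8.05 with Cre and 8.35 to 8.58 without), among them the proteases Mcpt4 (-1.17) and Cpa3 (-0.87). Of 16 endothelial markers, 16 were higher (9.48 to 9.66 with Cre and 8.99 to 9.41 without), including Cdh5 (0.45), Ptprb (0.63) and Flt1 (0.49). Of 12 mature adipocyte markers tested, 12 were higher (mean deviation from each gene's mean 0.066 to 0.18 with Cre and -0.21 to -0.060 without), among them Rbp4 (0.38), Pck1 (0.38) and Retn (0.35). AP markers were lower in 9 of 15 and their means overlapped (9.96 to 10.16 with Cre and 10.06 to 10.17 without), with Col3a1 at -0.22, Icam1 at -0.19 and Pdgfra at -0.17 and with Cd24a (0.11) and Dpp4 (0.086) among the 6 that were higher. Pi16 (-0.30) passed the filter through the controls alone (7.02 to 7.07, against 6.70 to 6.81 with Cre), so it had to be lower. Among the other 14 AP markers 8 were lower, beside 57.4% of all genes tested. The array means of the other lists overlapped. Of the mesothelial markers 6 of 8 were lower, and of the mural markers 3 of 10, with Rgs5 at 0.66 and Actg2 at -1.06. Of the rest, 3 of 12 lymphocyte markers found passed the filter, and Adam7 was the only epididymal gene of 9 found that passed it.

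With the macrophage marker mean of each array as a covariate, Cdk4 was at -0.027 ± 0.14 (SE), Ccnd1 at -0.085 ± 0.18, Myc at -0.18 ± 0.24 and Cdk6 at -0.26 ± 0.14. The median SE over all genes rose from 0.099 to 0.18 in that fit, because the covariate follows genotype. With the endothelial mean instead, Myc was at 0.014 and Cdk6 at -0.39, and with the adipocyte mean Ccnd1 was at 0.0098, Cdk4 at -0.016 and Cdk6 at -0.34. Cdk6 was lower with Cre in all 20 other settings, from -0.39 to -0.26, with an unadjusted p under 0.05 in 17 of them and an adjusted p from 0.114 to 1.00 by limma. Most of these settings could not turn its sign. Filters, moderation and averaged probesets leave this estimate as it is, since Cdk6 has 1 probeset. Array weights or dropped arrays cannot reverse it, because every array with Cre lay below every control. Only the further normalization, the median centring and the covariates could. In which cells these genes differed was not tested.

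**Figure D3:**
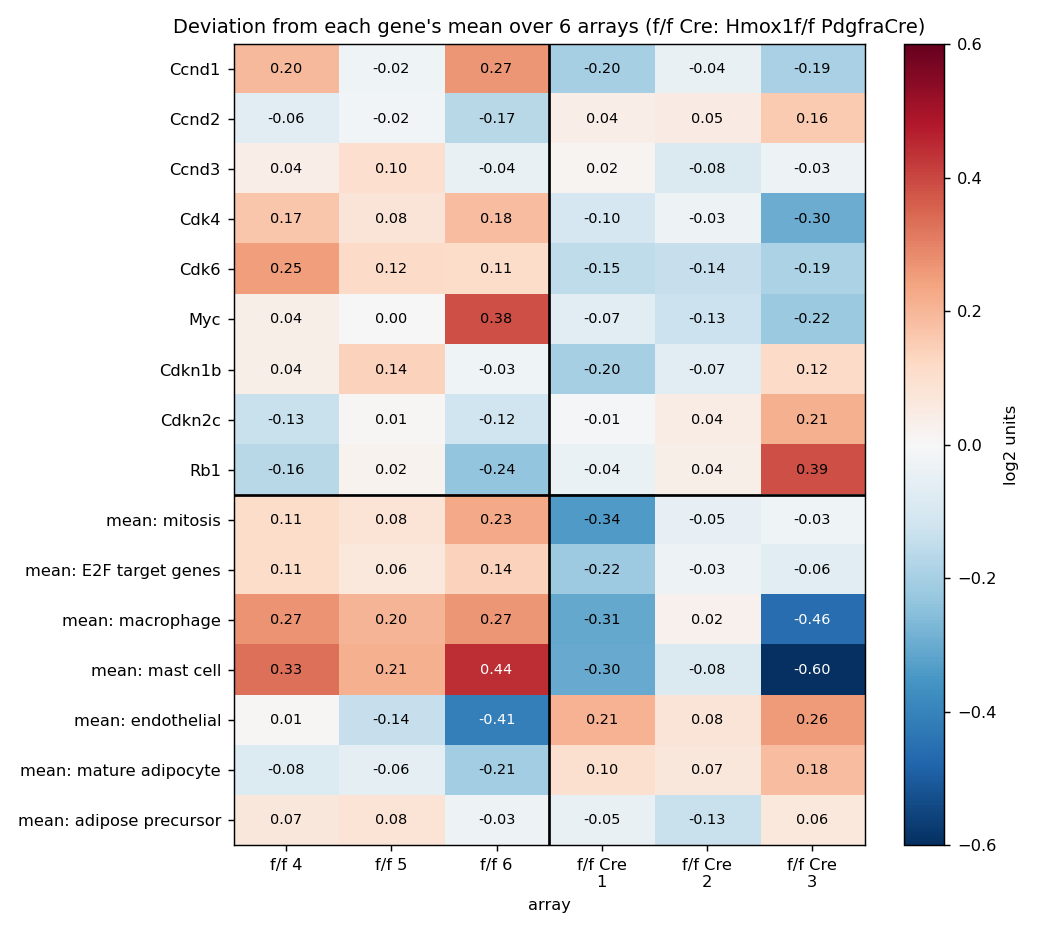
Deviation of log2 intensity from each gene's mean over 6 arrays, for the 9 genes (upper rows) and for the mean of the tested genes of 7 lists (lower rows), with Hmox1f/f arrays at left and Hmox1f/f PdgfraCre arrays at right (f/f Cre). Hmox1f/f PdgfraCre 3 holds the lowest Cdk4 value (-0.30), the highest Rb1 value (0.39) and the lowest macrophage mean (-0.46), and Hmox1f/f PdgfraCre 1 holds the lowest mitosis mean (-0.34).

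The genes around the members were followed in 10 pathway lists, of which no gene passed the adjusted threshold. Over all genes tested, 57.4% were lower and 13.8% were lower with an unadjusted p under 0.05. In 21.2% every array with Cre was below every control. Of 11 other G1/S cyclins and kinases tested, 8 were lower, with a median of -0.17, and 4 of them and no higher gene had an unadjusted p under 0.05. The S phase kinase Cdk2 gave 8.74, 8.82 and 8.84 with Cre and 8.97, 9.06 and 9.25 without, a difference of -0.29 ± 0.092 (SE) with no overlap. Cyclin A2, Ccna2, was at -0.29 ± 0.097 and the CDK-binding subunit gene Cks2 at -0.41 ± 0.13, also with no overlap. The median of this list was -0.10 without Hmox1f/f PdgfraCre 1, and -0.061 when Hmox1f/f 6 was dropped as well. Of 5 other CDK inhibitors, 4 were lower (median -0.16) and none had an unadjusted p under 0.05. Dropping Hmox1f/f PdgfraCre 3 brought that median to -0.086, dropping Hmox1f/f 5 to -0.24, and the double drop to -0.068. The inhibitor Cdkn1c was at -0.42 ± 0.20 (SE), the CDK phosphatase gene Cdkn3 at -0.32 ± 0.15 and the INK4 and ARF gene Cdkn2a at -0.13 ± 0.10. Of 15 pocket proteins and E2F or DP factors, 12 were lower, again with none under 0.05, and the median of -0.090 became -0.053 without Hmox1f/f PdgfraCre 1, -0.058 without Hmox1f/f 6 and -0.032 without both. E2f4, a repressor E2F of quiescent cells, was at -0.20 ± 0.098, E2f8 at -0.26 ± 0.13 and the DREAM complex gene Lin52 at 0.16 ± 0.077.

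Most tested genes that E2F factors switch on were measured lower. Of 26 E2F target genes tested, 23 were lower, beside 57.4% of all genes tested. Of these 23, 10 had an unadjusted p under 0.05, and none of the higher ones did. Over all genes tested, 13.8% were lower at that threshold. The median of the 26 was -0.23. One of them, Uhrf1, was above the filter on control arrays only, and 22 of the other 25 were lower. The chromatin assembly gene Chaf1b was at -0.40 ± 0.10 (SE), and the ribonucleotide reductase genes Rrm2 and Rrm1 at -0.33 ± 0.089 and -0.36 ± 0.098, each with no overlap between groups. All 22 mitosis genes tested were lower, 12 of them with an unadjusted p under 0.05 (57.4% and 13.8% of all genes), and their median was -0.29. It was -0.19 without Hmox1f/f PdgfraCre 1 and -0.17 when Hmox1f/f 6 was dropped too. The centromere histone gene Cenpa was at -0.41 ± 0.10 and the cytokinesis genes Ect2 and Racgap1 at -0.31 ± 0.085 and -0.37 ± 0.11. In 11 of the 22 mitosis genes every array with Cre was below every control (21.2% of all genes). The groups overlapped for Mki67 (-0.079 ± 0.16), Kif11 (-0.095 ± 0.22) and Top2a (-0.30 ± 0.18), among others. The E2F target median was -0.10 once Hmox1f/f PdgfraCre 1 and Hmox1f/f 6 were dropped. With the mitosis mean of each array as a covariate, Cdk6 was at -0.35 ± 0.13 and Cdk4 at -0.32 ± 0.16, against -0.16 ± 0.16 for Ccnd1.

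In the MYC network 8 of 10 genes tested were lower, beside 57.4% of all genes tested. The list median of -0.076 became -0.12 without Hmox1f/f 5 and -0.035 without Hmox1f/f 6 or under the double drop. Max, the obligate partner of MYC, gave 9.55, 9.58 and 9.47 with Cre and 9.78, 9.74 and 9.94 without. Its groups did not overlap, and the difference was -0.29 ± 0.082 (SE), close to that of Myc itself, with a limma adjusted p of 0.208. Mlx, the partner of the glucose sensor ChREBP, was at -0.22 ± 0.089, and the MAX-binding repressor gene Mga at 0.35 ± 0.18 with overlap. Of 23 MYC target genes, 18 were lower, beside 57.4% of all genes tested. An unadjusted p under 0.05 was found for 4 of the lower ones, near the 13.8% over all genes. In 6 of the 23 every array with Cre was below every control, also near the share over all genes (21.2%). The list median was -0.088. Dropping Hmox1f/f PdgfraCre 1 gave -0.031, dropping Hmox1f/f PdgfraCre 2 gave -0.14, and the double drop gave -0.046. Pa2g4, a nucleolar growth regulator, was at -0.26 ± 0.069, the ribosome assembly gene Bop1 at -0.26 ± 0.074 and the nucleoside diphosphate kinase gene Nme1 at -0.28 ± 0.089, each without overlap.

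The regulators of stability and transcription were mixed. Of 14 ubiquitin ligase genes of G1 regulators, 8 were lower, 2 of them with an unadjusted p under 0.05. Both counts were near the shares over all genes tested (57.4% and 13.8%). Their median of -0.050 turned to 0.011 without Hmox1f/f PdgfraCre 1 and to 0.0022 under the double drop, and was -0.094 without Hmox1f/f PdgfraCre 3. Skp2, which marks the Cdkn1b protein for destruction, gave 7.35, 7.56 and 7.54 with Cre and 7.98, 7.73 and 8.17 without. The Skp2 difference of -0.48 ± 0.13 (SE) was the largest of that list, with no overlap between groups and a limma adjusted p of 0.200. The ligase core gene Rbx1 was at -0.18 ± 0.072 and the ubiquitin-conjugating gene Cdc34 at -0.16 ± 0.085. Of 12 upstream regulators of CDK inhibitors and D cyclins, 8 were lower, beside 57.4% of all genes tested. Their median of -0.013 ranged from -0.046 to -0.0026 with 1 array left out and was -0.023 under the double drop. Foxo1, a forkhead factor that AKT inactivates, gave 10.03, 9.69 and 10.01 with Cre and 9.67, 9.50 and 9.41 without, a difference of 0.39 ± 0.12 with no overlap. Akt1 was at -0.36 ± 0.12 and the mitotic forkhead gene Foxm1 at -0.34 ± 0.15, also with no overlap. Akt2 was at 0.0022 ± 0.067 and Foxo3 at -0.11 ± 0.11, both with groups that overlapped. Of 18 p53 target genes, a group to which Cdkn1a belongs, 8 were lower and 10 higher, while 57.4% of all genes tested were lower. Their median of 0.013 turned to -0.0065 without Hmox1f/f 5 and to -0.00079 without Hmox1f/f 6, and was 0.0073 under the double drop. Plk2 (-0.50 ± 0.13) and Sesn1 (-0.34 ± 0.084) were lower on all 3 arrays with Cre, and Fas (0.39 ± 0.14) was higher on all 3.

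**Figure D4:**
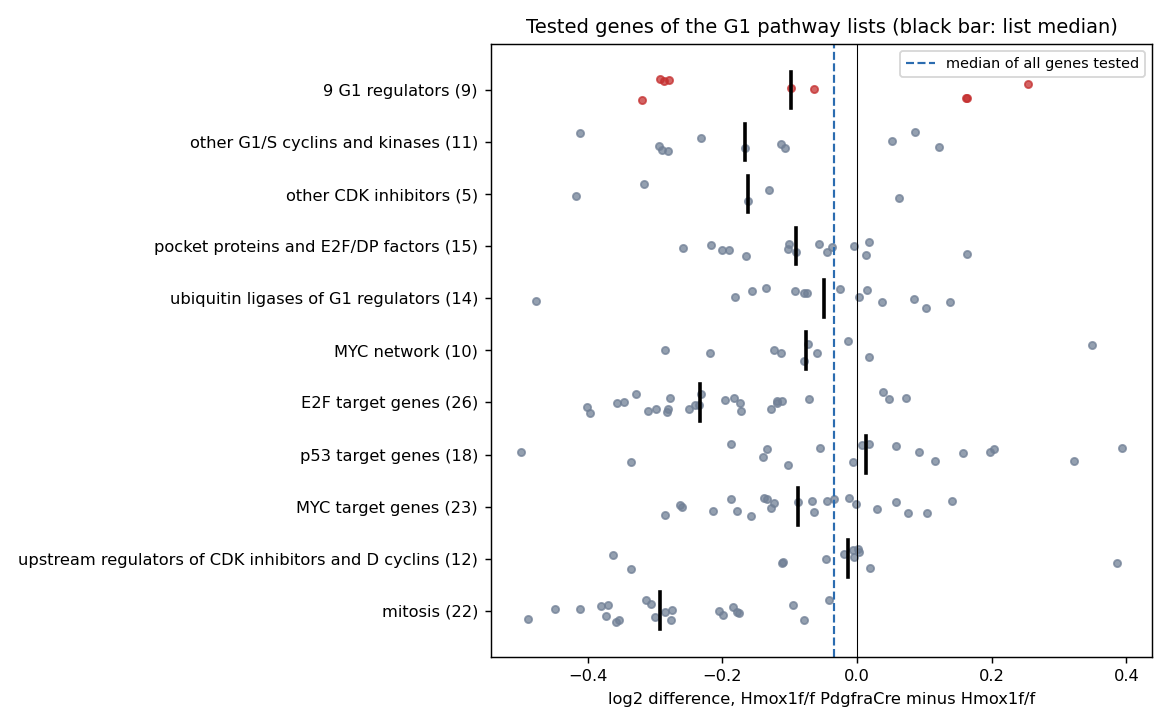
Log2 difference between Hmox1f/f PdgfraCre and Hmox1f/f (horizontal axis) of each tested gene (points, shifted at random in height) in the 9 G1 regulators and the 10 pathway lists, with the number tested in brackets, the list median (black bar) and the median of all genes tested (dashed, -0.034). The E2F target and mitosis medians (-0.23 and -0.29) lie farthest below, and the p53 target median (0.013), whose sign turned with 1 control array left out, lies just above 0.

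The profile of Cdk6, the member with the smallest p, was set against those of all other tested genes as the root mean square difference of gene-centred log2 values over the 6 arrays. The nearest genes were Slc41a2, a magnesium transporter gene, at 0.029, the steroid dehydrogenase gene Hsd17b11 at 0.029, the autophagy gene Atg14 at 0.035, Cnrip1 at 0.036 and the clathrin adaptor gene Ap1b1 at 0.039. Because they were chosen for their likeness to Cdk6, the 3 arrays with Cre lay below the 3 controls in each of these 5 genes. The mean differences were 0.29 to 0.33 in size, which also follows from that choice. With 6 arrays many genes share such a profile, since 21.2% of all genes tested had every array with Cre below every control.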

How the data were processed

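RNA of 6 pools was hybridised to Affymetrix mouse gene arrays. The intensity values deposited by the authors are whole numbers from 8 to 20701 on a linear scale, from RMA (background correction, quantile normalization and summary over probes) in Affymetrix Expression Console 1.1, per the submitters' processing notes. RMA compresses differences of dim probesets and hides a shift shared by most genes. Log2 of these values was fitted with lmFit and eBayes of limma 3.58.1 under R 4.3.3 (two-sided tests, no term but genotype, variances moderated over the 11024 genes tested), with Benjamini-Hochberg adjustment over those genes and 95% intervals from the same fit. The model was tested on simulated data of independent genes. An adjusted p under 0.05 was reached by 1 of 50 genes shifted by 0.3 log2 units. It was reached by 26 of 50 shifted by 0.5 and 45 of 50 shifted by 1, beside 5 of 10824 unchanged genes. The labels give no batch, and the number of arrays limits the precision. P-values measure the spread between pools. Of 35556 probesets, 21789 carried 1 symbol, 1621 several and 12146 were unnamed here. Figures used matplotlib 3.10.9.

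The members and the 20 gene lists (members, 10 pathway lists of cyclins, inhibitors, E2F, ligases, MYC, targets, p53, upstream regulators and mitosis, and 9 marker lists) were chosen with earlier results of these data known. Of 314 symbols, 297 were found and 256 tested. The genes named are all members, up to 3 tested genes of each list with the smallest p, Hmox1, Pdgfra, and the 5 genes nearest to the member with the smallest p. Also named are Cd24a, Dpp4, Uhrf1, Mki67, Kif11, Top2a, Akt2 and Foxo3. Alternatives were other filters, the filter of the methods (stated for other arrays), a further quantile normalization, median centring, arrayWeights, moderation with a trend and robust fit, averaged probesets, each array left out, and macrophage or mitosis means as covariates. Endothelial and adipocyte covariates, moderation over all genes, and leaving out Hmox1f/f PdgfraCre 1 and Hmox1f/f 6 together were added after seeing the data.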

Additional observations from a re-analysis of the deposited data

How the results depend on the processing

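No gene passed an adjusted p of 0.05 in limma under any of the 20 alternatives. The directions of Cdk4, Cdk6 and Ccnd3 held in all alternatives in which they were tested, and the other members turned only with a covariate. Filters and moderation cannot turn a direction, and dropping arrays cannot do so for members whose groups did not overlap. The medians of ligases and p53 targets turned with 1 array left out. No paired analysis was possible because the groups share no replicate numbers.

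Leaving out 1 array gave 891 to 1605 lower and 169 to 724 higher genes at an unadjusted p under 0.05 (1523 and 421 with all arrays), and 2 to 4 members under it. List medians ranged from -0.20 to -0.10 for other G1/S genes, -0.24 to -0.086 for other inhibitors, -0.13 to -0.053 for pocket and E2F factors, -0.094 to 0.011 for ligases, -0.26 to -0.16 for E2F targets, -0.0065 to 0.033 for p53 targets, -0.14 to -0.031 for MYC targets and -0.34 to -0.19 for mitosis. The MYC network median ranged from -0.12 to -0.035, that of upstream regulators from -0.046 to -0.0026, and the Cdk6 to Cdk4 ratio difference from -0.095 to 0.012, and it turned once Hmox1f/f PdgfraCre 2 was dropped. Dropping Hmox1f/f PdgfraCre 1 with Hmox1f/f 6 left 474 lower and 139 higher genes and 1 member under it, with medians of -0.061 for other G1/S cyclins and kinases, -0.032 for pocket and E2F factors, -0.035 for the MYC network, -0.10 for E2F targets, -0.17 for mitosis, -0.068 for other inhibitors, -0.046 for MYC targets and 0.0022 for ligases.

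Under the filter of the methods 4 members were tested, 3 lower and 0 under an unadjusted p of 0.05. Their differences were unchanged (Ccnd1 -0.29, Cdk4 -0.29, Cdk6 -0.32, Rb1 0.25) while the SE was larger (Cdk6 0.15, from 0.074), since variances were moderated over 3351 genes chosen for high spread. At an unadjusted p under 0.05, 455 genes were lower and 138 higher. Medians were then -0.29 for other G1/S genes, -0.32 for other inhibitors, 0.032 for the MYC network, 0.071 for p53 targets, 0.029 for MYC targets and -0.34 for upstream regulators. A further quantile normalization gave 697 higher genes. The upstream median was -0.040 with median centring and with arrayWeights.

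The covariates follow genotype in part, so fewer calls are built in. With macrophage markers, 238 genes were lower and 149 higher, 0 members passed, Rb1 was at -0.058, and medians were -0.12 (E2F targets), -0.012 (MYC network), 0.18 (other inhibitors), -0.071 (p53 targets) and -0.079 (upstream). With the mitosis mean, 179 were lower and 51 higher, 1 member passed, Cdkn1b was at 0.037, and medians were -0.061 (E2F targets), -0.037 (MYC network), -0.027 (MYC targets), -0.026 (mitosis), 0.035 (other G1/S genes), 0.019 (pocket and E2F factors) and 0.056 (ligases). With endothelial markers, 161 were lower and 14 higher, 1 member passed, Myc was at 0.014, and medians were -0.14 (E2F targets), 0.079 (other inhibitors), -0.070 (other G1/S genes), -0.055 (p53 targets), -0.020 (pocket and E2F factors) and -0.090 (upstream). With adipocyte markers, 620 were lower and 59 higher and 0 members passed. Ccnd1 was then at 0.0098, Ccnd2 at -0.063, Cdkn2c at -0.057, Myc at 0.20 and Rb1 at -0.23, with medians of -0.093 (E2F targets), 0.056 (MYC network), -0.15 (MYC targets), 0.13 (other inhibitors), -0.13 (p53 targets), -0.0099 (pocket and E2F factors), -0.16 (ligases) and -0.070 (upstream). The mitosis median of -0.026 is built in, since the covariate was the mean of those same genes. The cause of the other shifts was not tested.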
